A study of Citrullus lanatus with 30 samples.

Results

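The genes described here encode the mitochondrial respiratory chain of watermelon (Citrullus lanatus) fruit flesh. They were chosen by the words of their descriptions: NADH dehydrogenase, NADH-ubiquinone, cytochrome c, cytochrome b-c1, ubiquinol, ATP synthase or alternative oxidase, leaving out chloroplast entries and cytochrome P450. Among the 22596 genes listed, 113 matched, and 93 of them had at least 1 TPM (a transcript level normalized for length and library size) in at least 3 libraries. These 93 are the genes tested, among 16503 genes tested in all. The flesh came from fruits of a mutant line that the labels call clnor and from wild type (WT) fruits, harvested at 5 ages counted in days after pollination (DAP), namely 10, 18, 26, 34 and 42 days, with 3 RNA-seq libraries for each genotype and age (30 libraries in 10 groups). The labels name neither the cultivar nor the kind of lesion, and the mutated gene itself was not analysed here, so it gives no check of the genotypes. Whether the replicates come from different fruits or plants is not in the labels; the p-values rest on the scatter among these libraries, and that scatter may be technical.

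In the respiratory chain, complex I (NADH dehydrogenase) passes electrons from NADH to ubiquinone, complex III (cytochrome b-c1) passes them on to the small carrier cytochrome c, and complex IV (cytochrome c oxidase) hands them to oxygen. These complexes pump protons across the inner mitochondrial membrane, and ATP synthase uses the gradient to make ATP. Plants also have alternative oxidase, which takes electrons from ubiquinol straight to oxygen without pumping protons. A few subunits are encoded in the mitochondrial genome and most in the nucleus. Respiration of fleshy fruits changes as they ripen, and watermelon is usually counted among the non-climacteric fruits.

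By role, 32 of the 40 matching complex I genes were tested, 12 of 12 for complex III, 6 of 8 for cytochrome c and its maturation, 17 of 23 for complex IV, 22 of 26 for ATP synthase and 2 of 2 for alternative oxidase. A further 2 tested genes matched the words but belong elsewhere by description. One is an NADH dehydrogenase-like complex O gene (Cla97C01G014350), a name used for the plastid enzyme, and the other a vacuolar ATP synthase gene (Cla97C09G168340). Neither passed the test between the genotypes at any age. The description word "mitochondrial" stood in 7 of the 22 ATP synthase entries, and plastid subunits among the other entries cannot be told apart by name. Of the 20 genes left out by the filter 18 carry the names of subunits usually encoded in an organelle genome, and 6 of the 20 were listed at 0 in every library. Just inside the filter lay a complex I alpha subcomplex subunit 8-B gene (Cla97C06G115050, 3 libraries at 1 TPM or more), and just outside it an ATP synthase beta gene (Cla97C03G062450, 2 libraries).

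In all 30 libraries 78 of the 93 genes reached 1 TPM, and 32 had a mean of at least 100 TPM. The median of the genes' mean levels was 73.9 TPM for complex I, 110 TPM for complex III, 40.5 TPM for complex IV and 54.0 TPM for ATP synthase. The highest mean level, 529.9 TPM, belonged to a cytochrome c gene (Cla97C11G206880), and the next, 494.6 TPM, to a gene described as ATP synthase subunit 1 (Cla97C02G030740). Over the 10 groups, for the 65 genes at a mean of 20 TPM or more, the highest group mean was a median of 1.87 times the lowest. It was under 2 times in 39 of them and over 3 times in 5, with 153 times as the largest ratio. The same ratio was not worked out for all genes. For comparison between genes TPM is used throughout, and for comparison between groups the difference of log2(TPM + 1). On that scale the change of a gene near 0 TPM comes out too small.

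The library sums of the listed genes ran between 970727 and 985840 TPM, and read depth is not known from such values. By correlation over all genes, 5 libraries lay closer to the mean of another group than to their own: clnor 10 DAP replicates 1 and 3, clnor 18 DAP replicate 3, clnor 34 DAP replicate 2 and WT 18 DAP replicate 3. The 34 DAP results below therefore carry values without clnor 34 DAP replicate 2. At 18 DAP both replicate 3 libraries lay nearest to the other genotype of that age. WT 18 DAP replicate 3 correlated at 0.9446 with its own group and at 0.969 with clnor 18 DAP. For clnor 18 DAP replicate 3 the values were 0.9417 with its own group and 0.9774 with WT 18 DAP. Whether the labels of this pair were exchanged was not tested, and all results that use 18 DAP rest on them. Other tissues were looked at through 3 lists of marker words. At 34 DAP the 116 seed genes (68 tested) summed to between 3563 and 4118 TPM in clnor and between 6112 and 7483 TPM in WT, with 45 of them at 0 in each genotype. That list includes late embryogenesis abundant genes, which flesh can also express. It also holds lipid-transfer entries described by the 2S albumin superfamily, such as Cla97C06G120660 (mean 227.7 TPM). An 11S globulin storage gene in it (Cla97C05G092030) had a mean of 493.8 TPM over the 30 libraries and 5066.87 TPM in its highest library. Both were chosen after their values were seen. The 43 genes of the phloem list summed to 554.0 to 1512 TPM in clnor and 425.7 to 517.6 TPM in WT (9 and 10 of them at 0), and the 20 epidermis and cuticle genes to 54.39 to 58.31 TPM in clnor and 24.38 to 32.67 TPM in WT (8 at 0 in each). The phloem list also caught, by the letters PP2 in their descriptions, 4 genes of phosphatases and other proteins that are no phloem markers. At 42 DAP the seed sums were 3048 to 3688 TPM in clnor and 3582 to 3877 TPM in WT, the phloem sums 569.1 to 1219 TPM in clnor and 573.6 to 836.3 TPM in WT, and the cuticle sums 62.71 to 81.38 TPM in clnor and 35.85 to 44.64 TPM in WT. The part of these tissues in the results was not tested. In bulk flesh, fewer cells of a type and less RNA per cell cannot be told apart.

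Respiratory chain genes were mostly lower in clnor than in WT flesh at 34 and 42 DAP, where they differed at all. At 34 DAP 23 of the 93 genes were lower in clnor and 9 were higher (limma, adjusted p below 0.05 over all genes tested). Over all genes the balance was the other way, with 27.4% higher and 12.1% lower. At 42 DAP 15 were lower and 5 higher, against 13.8% lower and 18.8% higher among all genes. The share of respiratory chain genes called lower was 24.7% at 34 DAP and 16.1% at 42 DAP; the 42 DAP share was near that over all genes. At 26 DAP 3 genes were higher and 4 lower (9.66% and 5.8% of all genes), and after quantile normalization 2 and 5. Single libraries decided the 26 DAP count of 7: it was 2 without WT replicate 1, WT replicate 2 or clnor replicate 3 of that age, 4 without clnor replicate 1 or 2, and 5 without WT replicate 3.

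At 10 and at 18 DAP limma called 0 respiratory chain genes. The calls over all genes were 0.473% at 10 DAP and 2.35% at 18 DAP. At an unadjusted p below 0.05, 4 genes were higher and 3 lower at 10 DAP, and 3 were higher and 3 lower at 18 DAP. The 18 DAP count rested on single libraries: it was 3 without WT 18 DAP replicate 3, 5 without clnor 18 DAP replicate 3 and 9 without both (4 higher, 5 lower). Averaged over the 5 ages 9 genes were higher and 20 lower in clnor, against 31.8% and 16.4% of all genes; after quantile normalization this split was 5 and 24.

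The lower genes were mostly abundant ones. The 23 genes lower at 34 DAP had mean levels between 18.0 and 529.9 TPM (median 109 TPM), and their log2 differences lay between -1.88 and -0.42 (median -0.68). Called or not, 31 of the 93 genes had all 3 clnor libraries below all 3 WT libraries at 34 DAP, against 16.0% of all genes. The 9 genes higher at 34 DAP had mean levels between 1.02 and 64.6 TPM (median 2.96 TPM), 7 of them under 10 TPM, and 4 carry names of organelle-encoded subunits. Among the 65 genes at a mean of 20 TPM or more, 22 were lower and 2 higher at 34 DAP, where 16.7% and 23.8% of all genes at that level were. Their median log2 difference was -0.37, against 0.08 for all 7606 genes at that level. At 42 DAP 14 of the 65 were lower and 2 higher (16.5% and 18.2% of all genes at that level), with a median difference of -0.21 in the 65 and 0.00445 in all genes at that level.

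**Figure D1:**
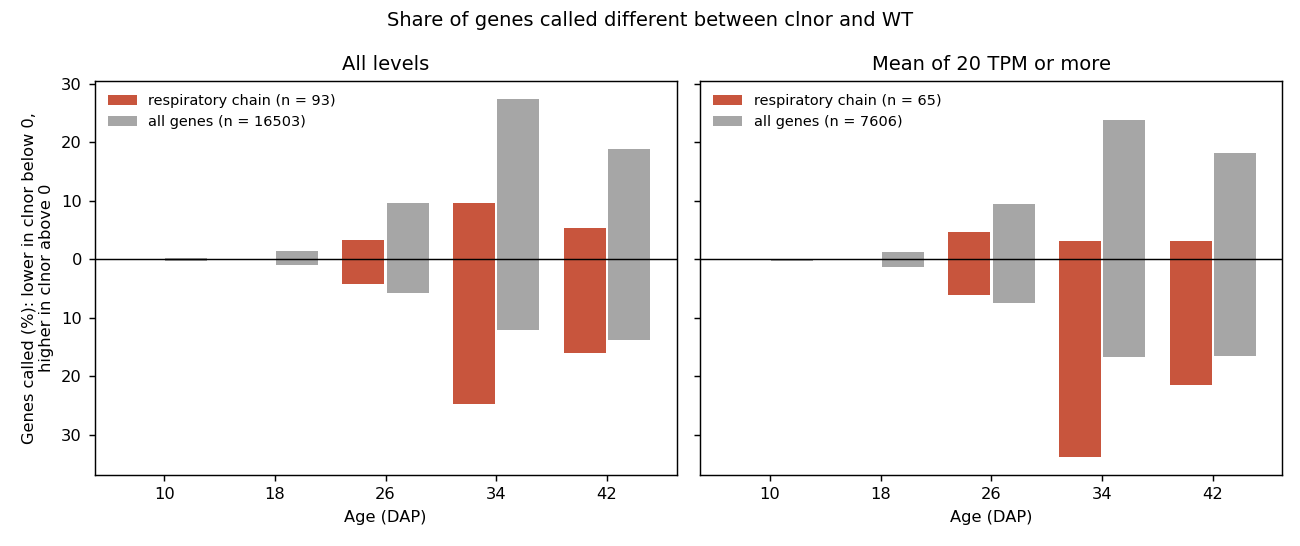
Share of genes called different between clnor and WT at each age (limma adjusted p below 0.05), for respiratory chain genes (red) and all genes (grey), with genes higher in clnor drawn above 0 and genes lower in clnor below 0; the left panel holds all tested genes and the right one those at a mean of 20 TPM or more. At 34 DAP 24.7% of respiratory chain genes were lower in clnor, against 12.1% of all genes, and 9.68% were higher, against 27.4%.

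Other scalings left the lower genes in the majority at 34 DAP. At 34 DAP the median difference was -0.21 for the 93 genes and 0.20 for all tested genes as deposited, and -0.28 and -0.01 after quantile normalization, so the distance between both medians was -0.41 and -0.26. The counts at 34 DAP were 9 higher and 32 lower with upper-quartile scaling and 6 higher and 24 lower after quantile normalization. The shares of all genes called under other scalings, or with a library left out, are not given here. With upper-quartile scaling the medians were -0.30 for the 93 genes and 0.12 for all tested genes. Without clnor 34 DAP replicate 2 the counts were 9 higher and 16 lower, and these medians were -0.17 and 0.16. That library was the lowest of the 3 clnor libraries in 15 of the 23 lower genes, and replicate 3 in the other 8. Of the 32 calls at 34 DAP, 7 higher and 15 lower ones held whichever of the 6 libraries was left out; at 42 DAP 4 higher and 9 lower of the 20 did.

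**Figure D2:**
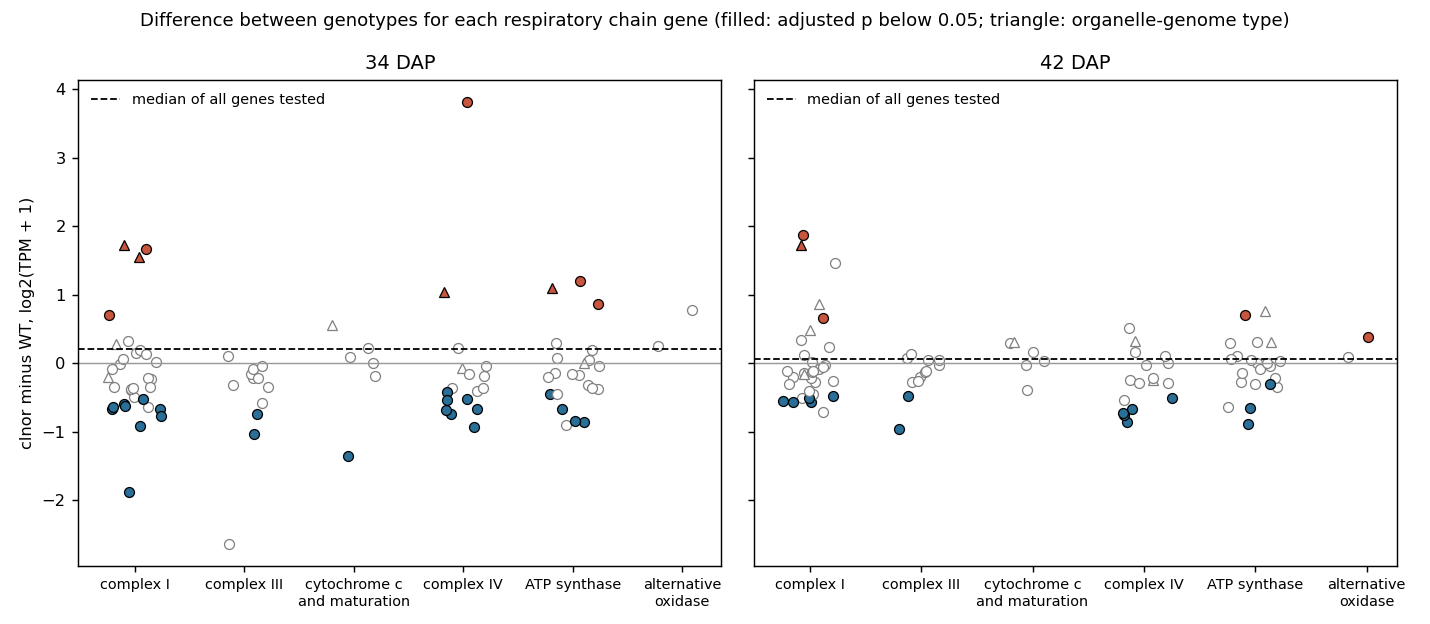
Difference of clnor minus WT in log2(TPM + 1) for each tested gene by role at 34 and 42 DAP; filled symbols passed the test (red higher, blue lower in clnor), triangles are genes with names of organelle-encoded subunits, and the dashed line is the median of all tested genes. At 34 DAP 9 complex I and 7 complex IV genes lay significantly below 0, while all 4 triangles that passed lay above it.

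In complex I, 9 of 32 tested genes were lower in clnor at 34 DAP and 4 were higher. At 42 DAP 5 were lower and 3 higher. These and the role counts below stand beside 12.1% of all genes lower and 27.4% higher at 34 DAP. At 42 DAP 13.8% of all genes were lower and 18.8% higher. The lower complex I genes include both flavoprotein names of the NADH-binding head. Flavoprotein 1, which binds NADH, has 2 gene copies in the table, and they went opposite ways. The more abundant copy (Cla97C02G033850) had 60.3, 60.2 and 53.1 TPM in clnor at 34 DAP, against 89.5, 89.8 and 93.2 TPM in WT, and 59.0, 59.0 and 57.3 TPM at 42 DAP, against 89.1, 86.6 and 85.4 TPM in WT. The genotypes did not overlap at either age, with log2 differences of -0.64 ± 0.15 (SE; limma adjusted p 0.00121) and -0.57 ± 0.15 (adjusted p 0.00428). The other copy (Cla97C10G199610) had 38.3, 38.4 and 37.5 TPM in clnor at 34 DAP, against 26.5, 25.2 and 18.1 TPM in WT, and 54.9, 52.2 and 54.5 TPM at 42 DAP, against 33.0, 32.9 and 35.8 TPM in WT. It was higher in clnor by 0.71 ± 0.17 (adjusted p 0.00162) and 0.65 ± 0.17 (adjusted p 0.00383).

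As a share of the summed TPM of both copies, Cla97C10G199610 made up 39.7% ± 1.43 in clnor and 20.3% ± 3.58 in WT at 34 DAP (SD, n = 3 each), and 48.0% ± 0.94 in clnor and 28.0% ± 1.31 in WT at 42 DAP. At 26 DAP the shares were close (41.5% in clnor and 40.1% in WT), and at 10 DAP the clnor share was the lower one (23.9% against 30.3%). In WT the minor copy was at 50.8 ± 7.06 TPM at 26 DAP and 23.3 ± 4.54 TPM at 34 DAP. The difference between the genotypes changed with age for both copies (limma F test over 5 ages, adjusted p 5.81e-04 for Cla97C10G199610 and 0.0472 for Cla97C02G033850). Genes with near-identical copies can exchange reads in counting, so each copy alone is less certain than their sum. Both copies were chosen after their values were seen.

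Further complex I subunits were lower at both late ages. The alpha subcomplex subunit 6 gene (Cla97C05G109190, an accessory subunit) had 115, 74.7 and 85.8 TPM in clnor at 34 DAP, against 180.2, 173 and 164 TPM in WT (-0.92 ± 0.17, adjusted p 1.26e-04). At 42 DAP the difference was -0.55 (adjusted p 0.0134), which was lost without clnor 42 DAP replicate 1 or 3 (adjusted p up to 0.0663). Subunit 9 of the alpha subcomplex (Cla97C06G110680, in the arm that joins the head to the membrane) differed by -0.68 (adjusted p 2.77e-04) and -0.56 (adjusted p 0.00189), and flavoprotein 2 (Cla97C07G139020, beside flavoprotein 1 in the head) by -0.60 (adjusted p 8.13e-04) and -0.48 (adjusted p 0.00645). All 3 were chosen after their values were seen. At 34 DAP alpha subcomplex subunits 12 (Cla97C01G005610) and 13-B (Cla97C06G117150) and beta subcomplex subunit 8 (Cla97C10G187360) were also lower, with differences of -0.66, -0.52 and -0.63, and at 42 DAP beta subcomplex subunit 10-B (Cla97C04G078000) with -0.51, again chosen after their values were seen. The subunit 12 call ended without clnor 34 DAP replicate 2 or WT 34 DAP replicate 1 or 3 (adjusted p up to 0.183), and the subunit 13-B call without clnor 34 DAP replicate 2 (adjusted p 0.0643) and after quantile normalization (adjusted p 0.0522). The subunit 10-B call ended without clnor 42 DAP replicate 3 or WT 42 DAP replicate 1 or 3 (adjusted p up to 0.0664).

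The MLRQ subunit gene of complex I (Cla97C05G090520) was the most variable abundant gene of the set. Its protein family also holds the plant B12D proteins, so its place in complex I rests on the description. It had 614.4, 133 and 261 TPM in clnor at 34 DAP, against 1249, 1208 and 705 TPM in WT. All 3 clnor libraries lay below WT, and the clnor libraries lay far apart from each other. The log2 difference of -1.88 ± 0.64 (adjusted p 0.0230) was lost without clnor 34 DAP replicate 2 or 3 or WT 34 DAP replicate 1 or 2 (adjusted p up to 0.141, with differences between -2.45 and -1.35). Its 42 DAP level was 287 ± 143 TPM in clnor, against 281 ± 109 TPM in WT.

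Because of this 1 gene, the summed level of all 40 complex I entries is given without it: 2477 ± 383 TPM in clnor and 3125 ± 126 TPM in WT at 34 DAP. The subunit with the highest mean level, beta subcomplex subunit 9 (Cla97C11G210610, in the membrane arm), went the other way. At 34 DAP all 3 of its clnor libraries lay above WT, but it was called neither then nor at 42 DAP. The only age at which it was called was 26 DAP. It had 330, 343 and 360.2 TPM in clnor at 26 DAP, against 222, 243 and 237 TPM in WT. The genotypes did not overlap (0.56 ± 0.15, adjusted p 0.0137), but leaving out clnor 26 DAP replicate 3 or WT 26 DAP replicate 1 ended the call (adjusted p up to 0.0551). Alpha subcomplex subunit 1 (Cla97C04G072720), second in mean level, had 283, 166 and 247 TPM in clnor at 34 DAP, against 362, 351 and 348 TPM in WT, and did not pass (-0.64 ± 0.27, adjusted p 0.0605).

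Apart from Cla97C10G199610 and Cla97C11G210610, the complex I genes called higher in clnor were at low level. The 75 kDa subunit gene (Cla97C07G133840, an iron-sulfur subunit of the head) had 2.66, 1.85 and 3.50 TPM in clnor at 34 DAP, against 0.19, 0.23 and 0 TPM in WT, and 3.79, 3.45 and 4.92 TPM at 42 DAP, against 0, 0.40 and 0.83 TPM in WT. The genotypes were well apart, with differences of 1.67 ± 0.27 (adjusted p 3.79e-05) and 1.87 ± 0.27 (adjusted p 1.19e-05). At 26 DAP it was at 3.22 ± 0.231 TPM in clnor, against 2.21 ± 0.766 TPM in WT and did not pass (adjusted p 0.330). Its mean was 1.48 TPM, and it reached 1 TPM in 14 of the 30 libraries. An entry described as NADH dehydrogenase subunit G (Cla97C05G092960, mean 83.3 TPM, chosen after its values were seen) was called at 0 of the 5 ages. That description does not say whether it is the same subunit under another name. A chain 5 gene (Cla97C09G176830), named after a proton-pumping subunit of the mitochondrial genome, was at 4.57 ± 1.38 TPM in clnor, against 0.71 ± 0.583 TPM in WT at 34 DAP (1.73, adjusted p 5.37e-05), and at 42 DAP it had 5.48 ± 1.10 TPM in clnor, against 0.943 ± 0.170 TPM in WT (1.73, adjusted p 6.61e-05). A second chain 5 gene (Cla97C02G032800) was at 2.52 ± 1.38 TPM in clnor, against 0.16 ± 0.277 TPM in WT at 34 DAP (1.55, adjusted p 0.00237).

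**Figure D3:**
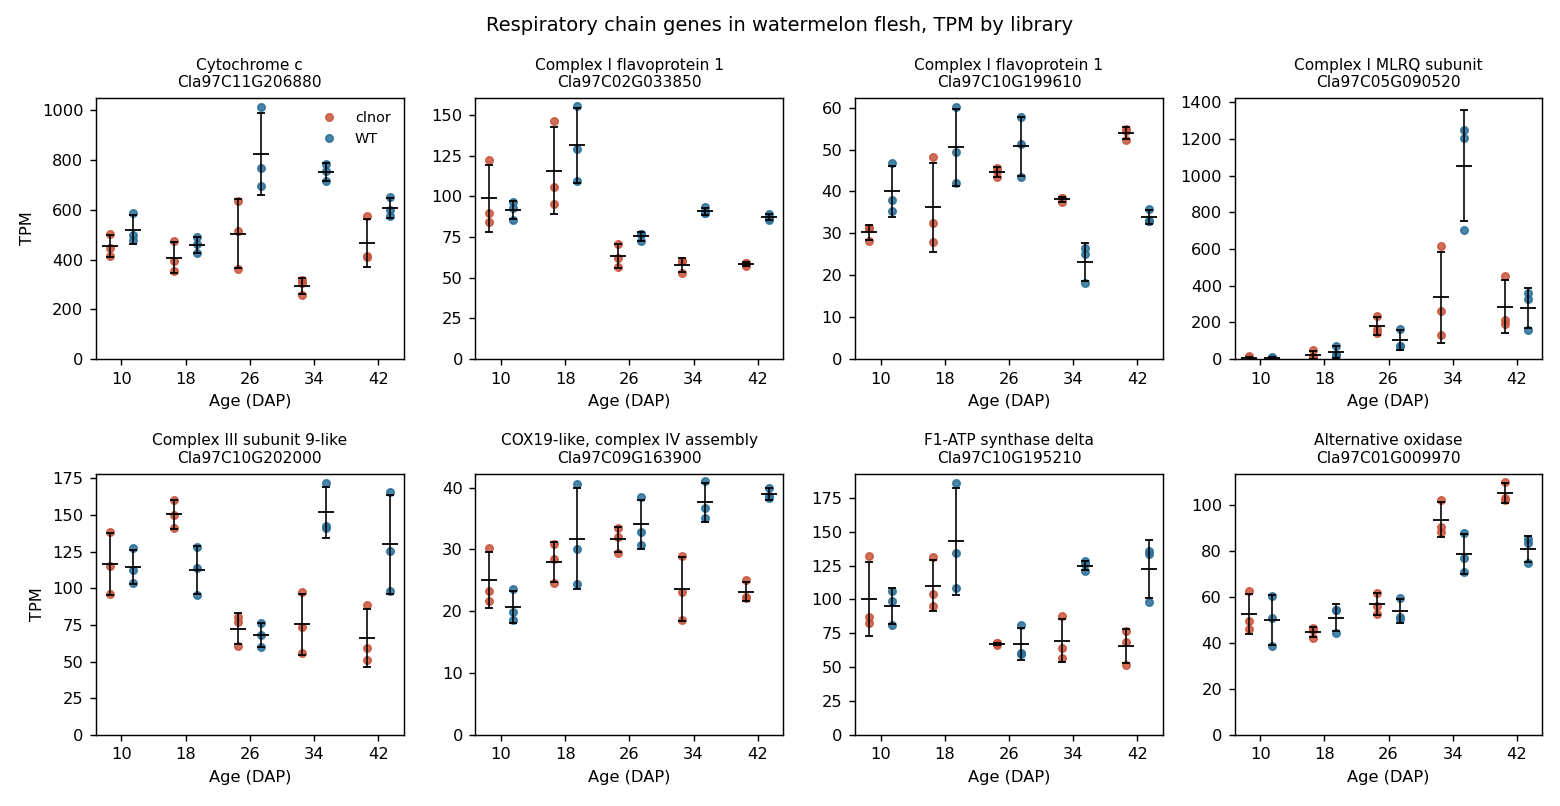
TPM of 8 respiratory chain genes in each of the 30 libraries by age, clnor (red) left of WT (blue); bars are the mean and SD of 3 libraries. At 34 DAP cytochrome c (Cla97C11G206880) averaged 294.5 TPM in clnor and 753.3 TPM in WT, and the 2 flavoprotein 1 copies (Cla97C02G033850 and Cla97C10G199610) lay on opposite sides.

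Cytochrome c, the mobile carrier between complexes III and IV, had the smallest p of the set at 34 DAP. The main cytochrome c gene (Cla97C11G206880) had 319.8, 306 and 257 TPM in clnor at 34 DAP, against 717, 757 and 787 TPM in WT. The genotypes were far apart, with little spread within each. The log2 difference was -1.36 ± 0.18 (adjusted p 3.81e-06). At 26 DAP it had 513, 637 and 362 TPM in clnor, against 769.8, 1013 and 697 TPM in WT (-0.73 ± 0.18, adjusted p 0.00714). It did not hold in fits that left out clnor 26 DAP replicate 3 or WT 26 DAP replicate 2 (adjusted p up to 0.0648). By 42 DAP the level was 467 ± 95.0 TPM in clnor, against 609 ± 39.9 TPM in WT and did not pass (-0.40, adjusted p 0.0929). The difference changed with age (F test, adjusted p 0.0054).

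The second cytochrome c gene (Cla97C01G025970) was at far lower level and followed another course. It had 23.6, 23.4 and 25.2 TPM in clnor at 34 DAP, against 23.9, 21.0 and 22.8 TPM in WT. It rose with age in both genotypes, by 0.78 in clnor and 1.05 in WT between 10 and 42 DAP (adjusted p 2.65e-04 and 4.45e-06), and passed in no comparison of genotypes at 1 age. Among the genes for fitting haem to cytochrome c, the most abundant (cytochrome c-type biogenesis protein, Cla97C10G190390) was at 23.4 ± 6.43 TPM in clnor, against 22.8 ± 3.36 TPM in WT at 34 DAP. At 34 DAP only the main cytochrome c gene passed of the 6 genes in this role.

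In complex III, 2 of 12 genes were lower at 34 DAP, 2 at 42 DAP and 0 were higher at either age. The shares lower were not far from those of all genes (12.1% and 13.8%). One subunit 9-like gene (Cla97C10G202000) encodes a small subunit of the complex. It had 73.3, 55.8 and 97.3 TPM in clnor at 34 DAP, against 141, 172 and 143 TPM in WT. At 42 DAP it had 51.2, 59.1 and 88.5 TPM in clnor, against 126, 98.4 and 166 TPM in WT. The groups did not overlap at either age, with differences of -1.03 ± 0.21 (adjusted p 5.31e-04) and -0.97 ± 0.21 (adjusted p 0.00117). At 26 DAP both genotypes were low (72.5 ± 10.7 TPM in clnor and 68.1 ± 8.12 TPM in WT), and the difference changed with age (F test, adjusted p 0.00178). Subunit 7 (Cla97C05G098210) had 248, 155 and 166 TPM in clnor at 34 DAP, against 301, 309 and 322 TPM in WT (-0.74 ± 0.19, adjusted p 0.00413).

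The most abundant complex III gene, for a 6.7 kDa protein (Cla97C11G212570), did not pass at any age; at 34 DAP it was at 287 ± 91.1 TPM in clnor, against 286 ± 17.8 TPM in WT. A second 6.7 kDa protein gene (Cla97C07G133620, chosen after its values were seen) was at 5.30 ± 2.24 TPM in clnor, against 38.9 ± 16.8 TPM in WT at 34 DAP. This was the largest difference in size at that age among genes lower in clnor (-2.64 ± 1.21), and with this error it did not pass (adjusted p 0.0878). Subunit 6 (Cla97C05G092230, the hinge protein beside cytochrome c, chosen after its values were seen) passed at 42 DAP (-0.49, adjusted p 0.0290), a call that ended without replicate 1 or 3 of clnor or of WT at 42 DAP (adjusted p up to 0.134). One Rieske iron-sulfur protein gene (Cla97C01G008170, chosen after its values were seen) was lower at 26 DAP (-0.39, adjusted p 0.0475). Leaving out any 1 of the 6 libraries lost that call (adjusted p up to 0.174). A second Rieske gene (Cla97C01G008180, mean 106.7 TPM, chosen after its values were seen) was called at 0 of the 5 ages. Its clnor libraries all lay below WT at 34 DAP.

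Among the roles complex IV had the highest share of lower genes, 7 of 17 at 34 DAP and 5 of 17 at 42 DAP; 2 were higher at 34 DAP. Of its 8 nuclear-type subunit genes 4 were lower and 1 higher at 34 DAP. Subunit 6a (Cla97C10G191520, a small nuclear subunit) had 163, 153 and 166 TPM in clnor at 34 DAP, against 219, 248 and 231 TPM in WT. At 42 DAP it had 168, 178 and 158 TPM in clnor, against 241, 218 and 264 TPM in WT. The differences were -0.53 ± 0.14 (adjusted p 0.00392) and -0.51 ± 0.14 (adjusted p 0.00643), and at 10 DAP the clnor mean was the higher one (225 ± 41.1 TPM against 171 ± 19.1 TPM, adjusted p 0.263). Subunit 6b-1-like (Cla97C08G154260) had a difference of -0.50 at 26 DAP (adjusted p 0.0193; ended by leaving out clnor 26 DAP replicate 2, or replicate 1 or 2 of WT, adjusted p up to 0.116) and of -0.69 at 34 DAP (adjusted p 5.44e-04). The most abundant gene, subunit 5C-like (Cla97C09G167530), was at 264 ± 77.0 TPM in clnor, against 347 ± 85.8 TPM in WT at 34 DAP and did not pass (adjusted p 0.286). A VIb family gene (Cla97C06G121470) was lower at 34 DAP (-0.74) and at 42 DAP (-0.75) and subunit 5b-1 (Cla97C07G139700) at 34 DAP (-0.42), both chosen after their values were seen. The Cla97C06G121470 call ended at 34 DAP without replicate 2 or 3 of either genotype (adjusted p up to 0.164). At 42 DAP it ended without replicate 1 or 3 of either (adjusted p up to 0.122). The Cla97C07G139700 call ended without replicate 3 of either (adjusted p up to 0.0555). A second 5b-1 gene (Cla97C07G139680, mean 36.1 TPM, chosen after its values were seen) was called at 0 of the 5 ages. Its clnor libraries all lay below WT at 18 DAP and above WT at 42 DAP.

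The largest difference among genes higher in clnor at 34 DAP was in a further gene of the 6b family (Cla97C09G175290, cytochrome c oxidase subunit VIb family protein). It had 134, 234 and 173 TPM in clnor at 34 DAP, against 7.97, 25.7 and 7.28 TPM in WT (3.81 ± 1.08, adjusted p 0.00705). Its level varied between libraries of a group more than that of other subunits: it had 151, 154 and 4.17 TPM in clnor at 18 DAP, against 7.84, 0.14 and 15.8 TPM in WT. The 4.17 TPM belonged to clnor 18 DAP replicate 3, one of the libraries that lay nearer to another group. At 42 DAP it averaged 32.7 ± 17.1 TPM in clnor and 42.5 ± 27.4 TPM in WT.

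Of the 7 complex IV assembly genes 3 were lower at both 34 and 42 DAP. Among all genes 12.1% were lower at 34 DAP and 13.8% at 42 DAP, and the share lower at both ages was not counted. COX23 (Cla97C05G083640), COX19-like (Cla97C09G163900) and COX11 (Cla97C07G136370) are named after yeast proteins needed to assemble the enzyme. The most abundant assembly gene, described as the copper chaperone of the enzyme (Cla97C10G190810, chosen after its values were seen), passed at 0 of the 5 ages; at 34 DAP it had 73.3, 37.3 and 62.0 TPM in clnor, against 58.6, 51.4 and 60.8 TPM in WT (-0.04, adjusted p 0.907). COX23 had 21.6, 11.4 and 15.8 TPM in clnor at 34 DAP, against 32.5, 27.3 and 33.8 TPM in WT (-0.93 ± 0.23, adjusted p 0.00246), and differed by -0.86 at 42 DAP (adjusted p 0.00569). COX19-like had 22.4, 24.99 and 22.2 TPM in clnor at 42 DAP, against 38.6, 38.3 and 40.0 TPM in WT, and differed by -0.67 at 34 DAP (adjusted p 0.00232) and -0.73 at 42 DAP (adjusted p 0.00146). COX11 had 41.4, 42.1 and 40.4 TPM in clnor at 42 DAP, against 63.4, 72.1 and 63.5 TPM in WT, and differed by -0.53 at 34 DAP (adjusted p 0.00955) and -0.67 at 42 DAP (adjusted p 0.00201). At 42 DAP the libraries of the genotypes did not overlap for COX23, COX19-like or COX11. The share of all genes without overlap at that age is not given here. The COX11 call at 34 DAP was lost without clnor 34 DAP replicate 2 (adjusted p 0.0936). COX11 and COX19-like were chosen after their values were seen.

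Most of the assembly genes rose with age in WT. Between 10 and 26 DAP 3 of 7 rose in clnor and 6 of 7 in WT, and between 10 and 42 DAP 2 of 7 in clnor and 5 of 7 in WT; 0 fell in these comparisons, also with upper-quartile scaling and quantile normalization. Among all genes 19.6% rose in clnor and 20.1% in WT by 26 DAP, and 21.5% in clnor and 26.7% in WT by 42 DAP. The difference between the genotypes in these counts was not tested. Their summed level was 225 ± 11.8 TPM in clnor, against 234 ± 15.6 TPM in WT at 26 DAP, 177.5 ± 32.6 TPM in clnor and 226 ± 11.3 TPM in WT at 34 DAP, and 187 ± 8.485 TPM in clnor and 237 ± 9.765 TPM in WT at 42 DAP. COX11 (Cla97C07G136370) rose by 1.42 in each genotype at 26 DAP over 10 DAP. By 42 DAP its rise over 10 DAP was 0.96 in clnor and 1.55 in WT, and the difference between the genotypes changed with age (F test, adjusted p 0.0449).

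ATP synthase genes were more divided, with 4 lower and 3 higher of 22 at 34 DAP and 3 lower and 1 higher at 42 DAP. Among all genes 12.1% were lower at 34 DAP and 13.8% at 42 DAP, and the 42 DAP share of this role was near that. One F1 delta gene (Cla97C10G195210) encodes a subunit of the catalytic part. It had 87.6, 57.1 and 64.0 TPM in clnor at 34 DAP, against 126, 121 and 128 TPM in WT. At 42 DAP it had 76.8, 68.6 and 51.5 TPM in clnor, against 136, 97.9 and 133 TPM in WT. Both ages were free of overlap, with differences of -0.86 ± 0.21 (adjusted p 0.00241) and -0.89 ± 0.21 (adjusted p 0.00227). The subunit g gene (Cla97C11G208240, of the membrane part) was lower at the middle ages. It had 115, 88.1 and 137 TPM in clnor at 26 DAP, against 174, 185 and 223 TPM in WT (-0.78 ± 0.18, adjusted p 0.00463), and 132, 103 and 103 TPM at 34 DAP, against 193, 189 and 228 TPM in WT (-0.85 ± 0.18, adjusted p 6.98e-04). Of the 7 calls at 26 DAP it was the only 1 that held whichever library was left out. Its level at 42 DAP was 117 ± 29.2 TPM in clnor, against 143 ± 28.9 TPM in WT (adjusted p 0.202).

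A gamma subunit gene at low level (Cla97C10G189640; gamma is the rotating stalk) was higher in clnor, with 8.08, 10.6 and 7.48 TPM at 34 DAP, against 4.47, 3.96 and 4.44 TPM in WT (0.87 ± 0.19, adjusted p 7.82e-04). At 42 DAP it had 10.4, 9.95 and 9.60 TPM in clnor, against 5.14, 6.68 and 5.45 TPM in WT (0.71 ± 0.19, adjusted p 0.00523). After quantile normalization the 34 DAP difference was 0.40 and did not pass. A more abundant gamma gene (Cla97C04G078680, chosen after its values were seen) had 181, 172 and 160.2 TPM in clnor at 34 DAP, against 244, 242 and 217 TPM in WT (-0.45 ± 0.12, adjusted p 0.0036), so the gamma entries lay on both sides. Another gamma gene (Cla97C01G021610) did not pass between the genotypes; in clnor it fell by 1.01 between 10 and 26 DAP (adjusted p 0.0410).

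The most abundant ATP synthase entries, a pair both described as subunit 1, passed at 26 DAP and at no other age. That description does not say which subunit of the enzyme is meant, so their place in it is uncertain. One (Cla97C02G030740) had 309.9, 316 and 355 TPM in clnor, against 214, 191 and 288 TPM in WT (0.52 ± 0.17, adjusted p 0.0359), and the other (Cla97C09G163740) 339, 317 and 384 TPM in clnor, against 259.6, 234 and 257 TPM in WT (0.46 ± 0.15, adjusted p 0.0407). Each call was lost in 5 of the 6 fits that left out 1 library, for Cla97C02G030740 all but WT 26 DAP replicate 3 (adjusted p up to 0.194) and for Cla97C09G163740 all but clnor 26 DAP replicate 2 (adjusted p up to 0.158). Entries described as epsilon subunit lay on both sides at 34 DAP, with Cla97C09G163600 at -0.67 (adjusted p 0.0384) and Cla97C01G023110 at 1.20 (adjusted p 0.0310). Both were chosen after their values were seen. The Cla97C09G163600 call ended without clnor replicate 2 or 3 or WT replicate 1 or 3 of that age (adjusted p up to 0.189), and the Cla97C01G023110 call without clnor replicate 1 or 3 or WT replicate 2 or 3 (adjusted p up to 0.184). After quantile normalization neither passed, with differences of -0.59 for Cla97C09G163600 (adjusted p 0.0901) and 0.58 for Cla97C01G023110 (adjusted p 0.301). At 34 DAP Cla97C02G030740 was at 461 ± 36.4 TPM in clnor, against 477 ± 38.8 TPM in WT.

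Alternative oxidase, the bypass around complexes III and IV, rose with age in both genotypes. The main gene (Cla97C01G009970, described as ubiquinol oxidase) had group means of 52.7, 44.8, 56.9, 93.8 and 105 TPM in clnor over the 5 ages, youngest first, against 50.04, 51.1, 53.8, 78.6 and 81.1 TPM in WT. Levels at 10, 18 and 26 DAP lay close together, and the 34 and 42 DAP levels lay above them. The 42 against 10 DAP differences were 0.9975 ± 0.14 in clnor (adjusted p 9.50e-06) and 0.71 ± 0.14 in WT (adjusted p 2.29e-04). At 42 DAP it had 110.2, 102 and 103 TPM in clnor, against 74.7, 83.4 and 85.3 TPM in WT. The libraries did not overlap and the difference of 0.37 ± 0.14 passed (adjusted p 0.0437), but the call was lost whichever 1 of the 6 libraries was left out (adjusted p up to 0.143) and after quantile normalization (adjusted p 0.0543).

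The second alternative oxidase gene (Cla97C10G192430) was lower in level and more variable. It had 56.3, 11.6 and 22.2 TPM in clnor at 42 DAP, against 14.8, 23.9 and 34.4 TPM in WT. These overlapped (0.09 ± 0.52, adjusted p 0.928). Between 10 and 42 DAP it rose by 2.59 in clnor and 3.32 in WT (adjusted p 4.69e-04 and 1.80e-05).

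Per 100 TPM of complex IV genes, both alternative oxidase genes together had 4.48 ± 1.23 TPM in clnor and 4.48 ± 1.29 TPM in WT at 10 DAP, 9.18 ± 0.996 TPM in clnor and 6.21 ± 0.636 TPM in WT at 34 DAP, and 12.2 ± 2.97 TPM in clnor and 7.51 ± 1.47 TPM in WT at 42 DAP (SD, n = 3 each). At 34 and 42 DAP the clnor libraries all lay above the WT libraries of that age. This ratio was chosen after values were seen, joins a small numerator and a large denominator, and is given with no test.

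**Figure D4:**
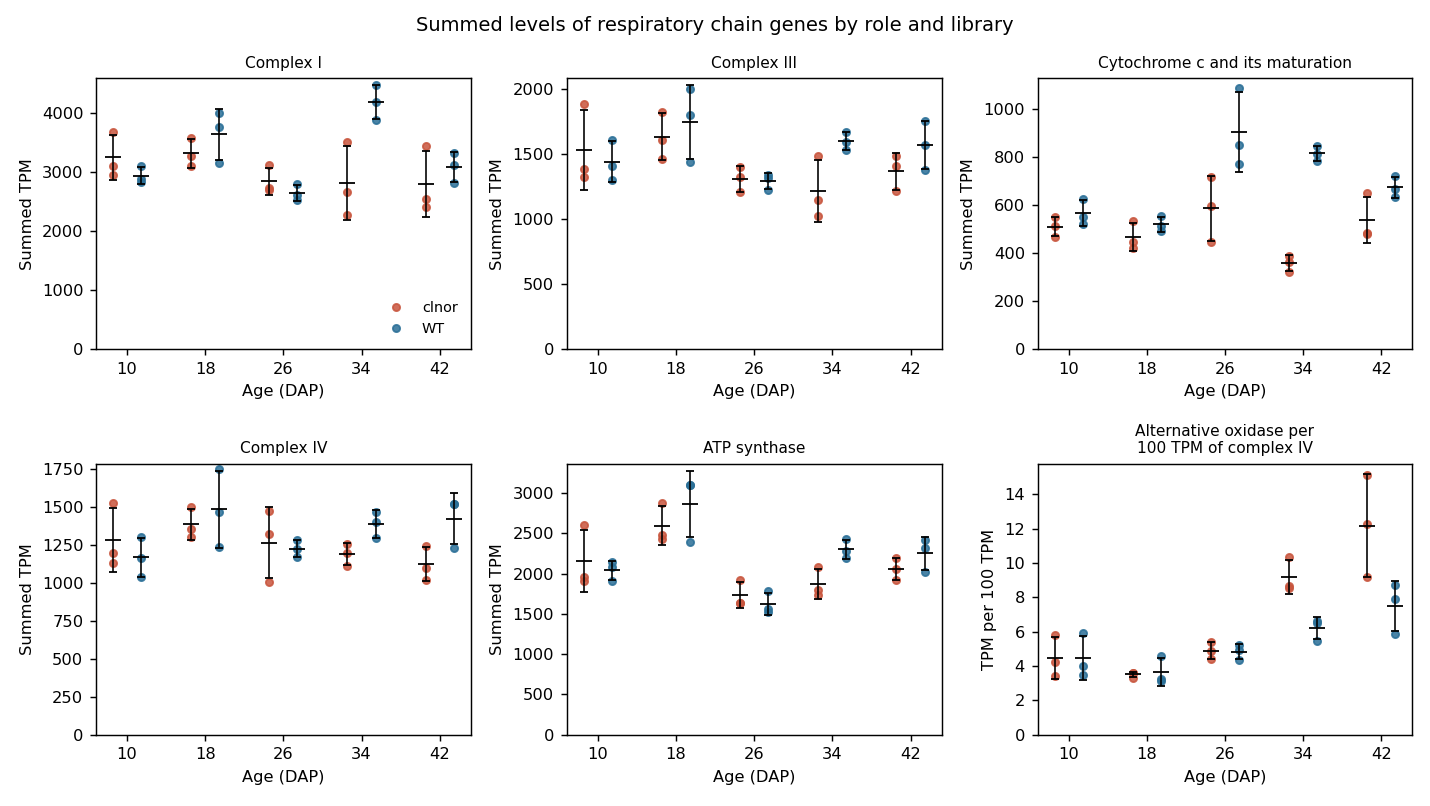
Summed TPM of all matching genes in each role, and alternative oxidase TPM per 100 TPM of complex IV, in each library by age, clnor (red) left of WT (blue), with mean and SD of 3 libraries. At 34 DAP the cytochrome c sum was 358.5 TPM in clnor and 815 TPM in WT, while the alternative oxidase ratio was 9.18 in clnor and 6.21 in WT.

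As a sum over all 113 matching genes, the respiratory chain made up 0.779% ± 0.116 of the library in clnor and 1.06% ± 0.0328 in WT at 34 DAP, and 0.824% ± 0.0911 in clnor and 0.931% ± 0.0833 in WT at 42 DAP. At 10 DAP the shares were 0.897% ± 0.130 in clnor and 0.838% ± 0.0481 in WT, within the spread of the libraries. The sums are dominated by a few abundant genes, of which the MLRQ gene moved most. The 27 genes with names of organelle-encoded subunits stood at low level: together they had 58.2 ± 4.16 TPM in clnor and 50.4 ± 6.47 TPM in WT at 34 DAP. Of the 9 that passed the filter 4 were higher at 34 DAP and 0 lower. The most abundant of the 9, another chain 5 gene (Cla97C08G152360, mean 25.7 TPM, chosen after its values were seen), was called at 0 of the 5 ages. Its highest group mean, 35.0 TPM, was in WT at 34 DAP. Those higher in clnor included the chain 5 genes Cla97C09G176830 and Cla97C02G032800. The others were cytochrome c oxidase subunit 1 (Cla97C04G070560, the catalytic subunit; 2.62 ± 0.523 TPM in clnor and 0.78 ± 0.405 TPM in WT, adjusted p 0.00104) and ATP synthase alpha (Cla97C08G144800; 2.60 ± 1.59 TPM in clnor and 0.617 ± 0.366 TPM in WT, adjusted p 0.0258). Both were chosen after their values were seen, and the ATP synthase alpha call ended when replicate 2 of clnor or of WT at 34 DAP was left out (adjusted p up to 0.160). After quantile normalization neither passed, with differences of 0.42 for Cla97C04G070560 (adjusted p 0.247) and 0.49 for Cla97C08G144800 (adjusted p 0.359). Whether such rows are transcribed from the organelle genome or from copies in the nucleus is not given in the sources used here.

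By 42 DAP more respiratory chain genes had risen than fallen in WT, and about as many had risen as fallen in clnor. Between 10 and 42 DAP 19 genes rose and 18 fell in clnor (21.5% and 17.5% of all genes), and 28 rose and 6 fell in WT (26.7% and 24.2% of all genes). With upper-quartile scaling the WT split was 22 and 13, and without clnor 10 DAP replicate 3 the clnor split was 25 and 13. Between 10 and 26 DAP 14 rose and 22 fell in clnor (19.6% and 15.2% of all genes), and 20 rose and 14 fell in WT (20.1% and 20.9% of all genes). Without clnor 10 DAP replicate 3, which lay nearer to the clnor 18 DAP group, 17 rose and 12 fell in clnor between 10 and 26 DAP; the falls were 14 without clnor 26 DAP replicate 2. In WT the 26 against 10 DAP split was 11 and 11 when replicate 2 at 26 DAP was left out. It was 18 and 8 when replicate 2 at 10 DAP was left out, and 13 and 11 when replicate 3 at 10 DAP was. Between 10 and 26 DAP 23 genes changed the same way in both genotypes and 0 opposite ways. Between 10 and 34 DAP 14 changed the same way and 4 opposite ways. Between 10 and 42 DAP 18 changed the same way and 1 opposite ways. The same counts over all genes were not made, so these are a description only. The change of the genotype difference over the 5 ages passed the F test for 17 of the 93 genes (18.3%), near the 23.1% of all genes; it was 11 when replicate 3 of clnor at 34 or 42 DAP, replicate 3 of WT at those ages, or replicate 1 of WT at 34 DAP was left out.

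The early step also differed in count. Between 10 and 18 DAP 1 gene rose and 2 fell in clnor (4.1% and 2.98% of all genes), and 25 rose and 5 fell in WT (16.8% and 15.5% of all genes). The difference between the genotypes in that step was called in 0.0303% of all genes, so the unequal counts do not show that single genes differ in it; 2 of the 3 libraries of clnor at 10 DAP and 1 in each group at 18 DAP lay nearer to another group. Of the 65 genes at a mean of 20 TPM or more, 27 had their highest group mean in WT at 18 DAP, 10 in WT at 42 DAP and 9 in WT at 34 DAP. The lowest group mean was in WT at 26 DAP for 15 genes and in clnor at 34 DAP and in WT at 10 DAP for 11 each.

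**Figure D5:**
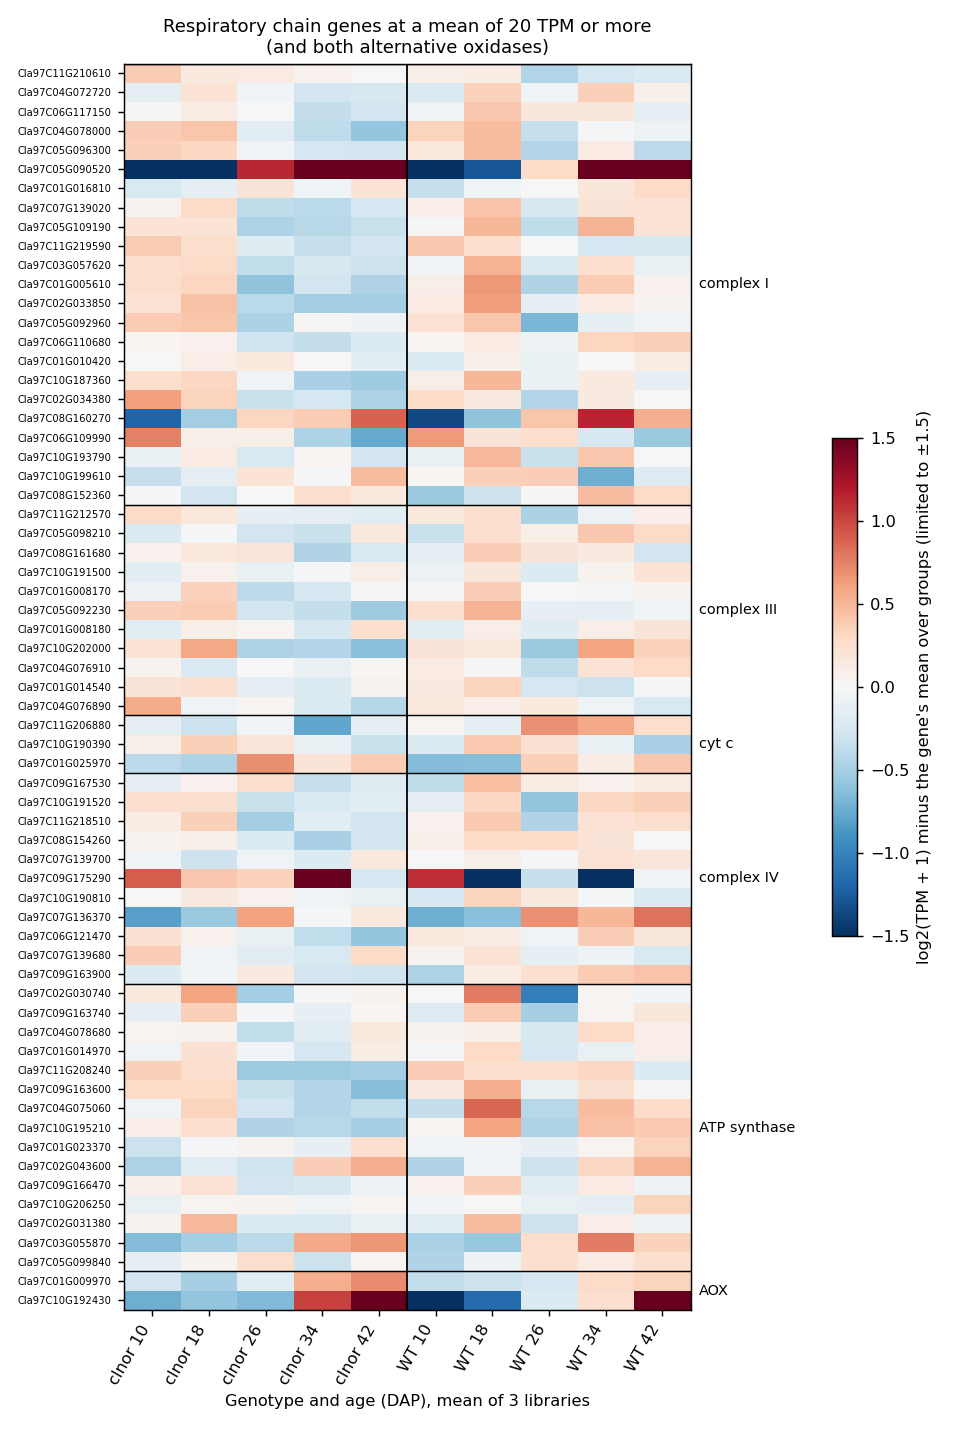
Mean log2(TPM + 1) of 3 libraries in each group minus the mean of the 10 groups, for respiratory chain genes at a mean of 20 TPM or more (without the complex O gene) and both alternative oxidases, ordered by role and mean level, clnor left of WT; colours are limited to 1.5 in both directions. Many rows are highest in WT at 18 DAP (27 of the 65 genes at that level), and the rows of MLRQ (Cla97C05G090520), the VIb family gene (Cla97C09G175290) and the second alternative oxidase run beyond the colour limits.

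The MLRQ gene (Cla97C05G090520) showed the largest rise with age, at 287 ± 143 TPM in clnor at 42 DAP over 7.37 ± 6.32 TPM at 10 DAP (5.25 ± 0.64, adjusted p 1.75e-06), and at 281 ± 109 TPM in WT at 42 DAP over 6.88 ± 3.68 TPM at 10 DAP (5.18 ± 0.64, adjusted p 9.20e-07). Among complex I genes it was followed by an iron-sulfur protein 4-like gene (Cla97C08G160270), which rose by 2.08 in clnor and 1.89 in WT (adjusted p 1.78e-06 and 2.72e-06). At 34 DAP this gene had 112, 49.2 and 84.5 TPM in clnor, against 156, 127 and 117 TPM in WT (-0.77 ± 0.26, adjusted p 0.0204; ended by leaving out clnor 34 DAP replicate 2 or WT 34 DAP replicate 1, adjusted p up to 0.182). Its partner with the same subunit name (Cla97C01G016810, chosen after its values were seen) was at 137 ± 9.39 TPM in clnor, against 161 ± 12.3 TPM in WT at 34 DAP and did not pass (adjusted p 0.164).

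Falls with age were seen in other complex I genes. The assembly factor 3-like gene (Cla97C06G109990) had 32.4, 34.7 and 32.6 TPM in clnor at 42 DAP over 101, 114 and 78.2 TPM at 10 DAP, and 48.4, 34.8 and 34.0 TPM in WT at 42 DAP over 92.0, 83.5 and 93.6 TPM at 10 DAP. The falls were 1.51 in clnor and 1.20 in WT on the log2 scale (adjusted p 4.40e-08 and 3.97e-07). Iron-sulfur protein 6 (Cla97C02G034380), a small subunit near the head, fell by 1.08 in clnor between 10 and 42 DAP (adjusted p 4.53e-05). In WT its change of -0.28 did not pass (adjusted p 0.184), and the genotype difference of this gene changed with age (F test, adjusted p 0.0432). The chain 5 gene Cla97C09G176830 fell by 1.47 in WT between 10 and 42 DAP (adjusted p 1.81e-04), and in clnor its change was 0.11 (adjusted p 0.787).

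Other mitochondrial genes that feed or bypass the chain were taken from lists of description words; their counts at 34 DAP stand beside 27.4% of all genes higher and 12.1% lower, and those at 42 DAP beside 18.8% higher and 13.8% lower. Of 11 complex II genes (succinate dehydrogenase and its assembly, the other entry of electrons), 5 were lower and 0 higher at 34 DAP, and 3 were lower at 42 DAP. Assembly factor 2 (Cla97C11G206870) was at 72.6 ± 10.3 TPM in clnor, against 214 ± 12.5 TPM in WT at 34 DAP (-1.56, adjusted p 1.93e-07), and subunit 7B-like (Cla97C06G126390) differed by -0.60 (adjusted p 0.0169). Of 4 alternative NAD(P)H dehydrogenase genes, whose enzymes pass electrons to ubiquinone without pumping protons, 2 were higher and 1 lower at 34 DAP. The internal A1 gene (Cla97C02G045480) was at 15.5 ± 2.11 TPM in clnor, against 4.15 ± 0.456 TPM in WT (1.68, adjusted p 2.98e-07). The external B1 gene (Cla97C02G027730) was at 132 ± 31.2 TPM in clnor, against 48.3 ± 5.24 TPM in WT (1.40, adjusted p 3.42e-06), against a difference of -0.86 at 26 DAP (adjusted p 0.00245).

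A list of mitochondrial carriers (ADP,ATP and phosphate carriers, and 3 uncoupling proteins) had 5 higher and 4 lower of 14 genes at 34 DAP, and the most abundant (ADP,ATP carrier protein 1, Cla97C08G159680) did not pass (0.13, adjusted p 0.598). An ADP,ATP carrier gene at low level (Cla97C07G133260) was at 6.33 ± 0.0416 TPM in clnor, against 1.82 ± 0.191 TPM in WT (1.38, adjusted p 3.89e-06). Of 28 genes found by words for mitochondrial protein import 4 were higher and 5 lower at 34 DAP. The most abundant, for the receptor subunit TOM7-1-like (Cla97C06G123490), was at 519 ± 86.6 TPM in clnor, against 770.3 ± 2.84 TPM in WT (-0.58, adjusted p 0.0207), and a gene of the Tim17 family (Cla97C01G000010) at 147.5 ± 11.04 TPM in clnor, against 313 ± 16.7 TPM in WT (-1.08, adjusted p 2.08e-05). The import list also caught, by the letters TOM, a TOM1-like protein 2 gene (Cla97C02G040220), whose description does not name mitochondria. That gene did not pass at 34 DAP (limma adjusted p 0.269). The 1 prohibitin gene found (Cla97C06G126660, a scaffold protein of the inner membrane) did not pass (adjusted p 0.452). Among 20 genes of fermentation enzymes, which regenerate NAD+ without oxygen, 4 were higher and 11 lower at 34 DAP, and 4 and 7 at 42 DAP. That list was caught by words and holds cinnamyl alcohol dehydrogenases as well. Its most abundant gene, an alcohol dehydrogenase (Cla97C05G089700), was at 919.7 ± 89.97 TPM in clnor, against 2211 ± 339.5 TPM in WT at 34 DAP (-1.26, adjusted p 2.29e-04), while an alcohol dehydrogenase-like 7 gene (Cla97C08G152410) was at 9.51 ± 0.935 TPM in clnor, against 2.10 ± 0.609 TPM in WT (1.77, adjusted p 1.43e-07). These lists were chosen with earlier results of these data known, and their counts are a description.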

How the data were processed

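RNA-seq was run on total RNA of watermelon flesh from 30 libraries, extracted with Trizol and a column clean-up with DNase I and sequenced on an Illumina NovaSeq instrument, per the labels' protocols. The authors deposited 1 table of TPM values per gene and library with gene descriptions. The submitters' processing notes name TopHat2, HISAT2, StringTie and Cufflinks; for their versions and roles, and for the build, the entry is: not given in the sources used here. TPM keeps no read depth, so no counting error can be given; genes listed at 0 numbered 5099 to 6433 per library.

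From these values log2(TPM + 1) was computed for the 16503 genes that reached 1 TPM in 3 or more libraries. A linear model over the 10 groups (20 residual degrees of freedom) was fitted with limma 3.58.1 in R 4.3.3, with eBayes trend and robust settings, and tested on simulated data. It gave the genotype difference (clnor minus WT) per age and as the mean of the 5 ages, later ages against 10 DAP within each genotype, and an F test of the change of the genotype difference over ages. P-values were adjusted by Benjamini-Hochberg over all genes tested and called below 0.05. Tables were made with pandas 2.3.3 in Python 3.11.15.

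The members and lists were chosen with earlier results of these data known. Genes are named by rule: all alternative oxidase and plain cytochrome c genes, the 2 of highest mean TPM and the 2 of smallest p in the averaged contrast per role, the 3 largest called differences each way per age, and the 2 largest called changes with age each way. Others are marked as chosen after their values were seen. Alternatives were other pseudocounts (0.1 and 0.5), filters (none and 5 TPM), scalings (common sum, upper quartile, quantile), a replicate block, fits with only the groups compared, and each library left out. Leaving out all 5 libraries nearest to another group was chosen after seeing the data.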

Additional observations from a re-analysis of the deposited data

Results flagged for a closer look

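In 10 of the genes named by rule the difference between clnor and WT changed over the 5 ages, by limma's F test adjusted over all genes. The main cytochrome c gene (Cla97C11G206880) had an adjusted p of 0.005398. In complex I the 75 kDa gene (Cla97C07G133840) had 0.005634, the chain 5 genes Cla97C09G176830 and Cla97C02G032800 had 0.007999 and 0.01739, and iron-sulfur protein 6 (Cla97C02G034380) had 0.04316. The complex III subunit 9-like gene (Cla97C10G202000) had 0.001775. In complex IV subunit 6a (Cla97C10G191520) had 0.00211 and COX23 (Cla97C05G083640) had 0.03525. In ATP synthase subunit g (Cla97C11G208240) had 0.02788 and F1 delta (Cla97C10G195210) had 0.03455. Groups of 3 libraries were not tested for single outlying libraries.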

How the results depend on the processing

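Counts of respiratory chain genes called kept within 1.5 times their reported value under the pseudocount, filter, scaling and replicate block alternatives. With only the 2 groups compared in the fit, 2 genes were called at 26 DAP (7 as reported) and 13 between 10 and 26 DAP in clnor (36 as reported); fewer samples estimate the spread there. At 18 DAP (0 as reported) 9 were called without both replicates 3 and 17 without all 5 libraries nearest to another group. Leaving out 1 library at a time gave 0 to 0 genes at 10 DAP, 0 to 5 at 18 DAP, 2 to 5 at 26 DAP, 25 to 40 at 34 DAP, 14 to 21 at 42 DAP, 23 to 33 averaged over ages, 11 to 20 for the F test, 22 to 35 and 29 to 32 for WT at 26 and 42 against 10 DAP, and 27 to 36 and 29 to 38 for clnor at those ages. Same-numbered replicates do not pair the samples by the labels, and in 4 of 15 pairs only did their deviations correlate above 0.1 (range -0.4068 to 0.2466). With the replicate block 0 genes were called at 10 and at 18 DAP, 6 at 26, 33 at 34 and 18 at 42 DAP, 28 averaged, 12 by the F test, 31 and 32 in WT and 33 and 35 in clnor at 26 and 42 against 10 DAP. Of the tests on named genes that passed, 961 repeats under alternatives also passed and 58 did not; of those that did not pass, 47 repeats passed and 2546 did not, and 0 turned direction while called. Read depth is unknown, so what depth limits cannot be given.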
